A study of Mus musculus with 7 samples.

Results

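Selective autophagy receptors are proteins that hold a cargo on one side and an ATG8 protein of the growing autophagosome on the other. The 10 receptor genes described here were *Sqstm1*, *Nbr1*, *Optn*, *Tax1bp1*, *Calcoco1*, *Bnip3*, *Bnip3l*, *Fundc1*, *Tex264* and *Retreg1*, chosen by name as receptors for ubiquitinated cargo, mitochondria or the endoplasmic reticulum (ER), out of 52740 genes in the count table. All 10 passed the filter on low counts, which left 16990 genes to test. Their mRNA was compared between 4 WT and 3 LC3b-/- libraries of mouse retinal pigment epithelium (RPE), the pigmented monolayer behind the photoreceptors. Every mouse was 24 months old, and each library came from a different mouse. WT mice were C57BL6/J (3 females and 1 male, libraries F1, F2, F3 and M1). LC3b-/- mice carried the germline Map1lc3b tm1Mrab allele on a B6;129P2 background (2 females and 1 male, libraries F1, F3 and M), so the deletion was present in every cell and strain background cannot be told apart from genotype. Sheets of RPE were freed from the eyecup with hyaluronidase and trypsin.

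In selective autophagy the receptor binds ATG8 proteins (LC3a and LC3b, GABARAP, GABARAPL1 and GABARAPL2 in mouse) through a short LC3-interacting region, or LIR, whose core opens with an aromatic residue and closes with a hydrophobic one. Loss of LC3b removes one of the proteins to which the LIR can dock. RPE cells do not divide, clear shed photoreceptor outer segments every day by a process that borrows the LC3 lipidation machinery, and rely on mitophagy and ER-phagy through life. The comparison therefore asks whether the mRNA of the docking partners differs in aged RPE that has lost one ATG8 protein.

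The coding sequence around the LIR core is shown for the 8 receptors with a canonical core, because it is the part of each receptor that faces the protein deleted in these mice. Capitals mark the 12 bases of the core, and 12 bases are given on each side, read 5′ to 3′ on the coding strand from the GRCm39 genome and the canonical GENCODE vM39 transcript. Each run was found at 1 place in its coding sequence.

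Sqstm1 LIR: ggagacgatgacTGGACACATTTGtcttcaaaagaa
Nbr1 LIR: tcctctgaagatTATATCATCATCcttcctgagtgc
Optn LIR: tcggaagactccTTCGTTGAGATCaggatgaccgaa
Bnip3 LIR: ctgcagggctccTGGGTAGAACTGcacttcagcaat
Bnip3l LIR: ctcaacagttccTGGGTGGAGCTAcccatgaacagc
Fundc1 LIR: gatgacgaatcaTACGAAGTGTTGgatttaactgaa
Tex264 LIR: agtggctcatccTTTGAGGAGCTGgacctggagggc
Retreg1 LIR: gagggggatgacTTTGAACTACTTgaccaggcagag

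The core opened with the codon TGG in *Sqstm1*, *Bnip3* and *Bnip3l*, with TAT or TAC in *Nbr1* and *Fundc1*, and with TTC or TTT in *Optn*, *Tex264* and *Retreg1*. It lay near the start of the 3 mitochondrial receptors, at codons 13 to 16 of 187 in *Bnip3* (chr7:138500541-138500552, minus strand, exon 2 of 6), 35 to 38 of 218 in *Bnip3l* (chr14:67237137-67237148, minus strand, exon 2 of 6) and 18 to 21 of 155 in *Fundc1* (chrX:17437664-17437675, minus strand, exon 2 of 5). In both ER receptors it lay in the last exon, at codons 272 to 275 of 309 in *Tex264* (chr9:106536331-106536342, minus strand, exon 6 of 6) and 438 to 441 of 480 in *Retreg1* (chr15:25972001-25972012, plus strand, exon 9 of 9). The ubiquitin-binding receptors held it at codons 340 to 343 of 442 in *Sqstm1* (chr11:50093368-50093379, minus strand, exon 7 of 8), 750 to 753 of 988 in *Nbr1* (chr11:101465968-101465979, plus strand, exon 20 of 24) and 188 to 191 of 584 in *Optn* (chr2:5050807-5050818, minus strand, exon 4 of 14). TAX1BP1 and CALCOCO1 bind ATG8 proteins through a motif of another form, and no core is shown for them.

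The 7 libraries held 24495952 to 35616134 assigned counts. *Map1lc3b*, which encodes LC3b, was at 104 to 130 CPM in WT (counts scaled to the same total in every library, with the TMM correction for library composition) and at 6.76 to 8.33 CPM in LC3b-/-, so every label matched its library. Genes were called changed at an adjusted p below 0.05 and a fold change of at least 1.5, from the quasi-likelihood test of edgeR, with p-values adjusted by the Benjamini-Hochberg method across the 16990 genes. By this rule 0.235% of genes passed. DESeq2 called 9.48% of the genes it tested by the same thresholds. Defining RPE markers were present in every library, *Best1* at only 0.86 to 1.71 CPM. Their sum was lower in LC3b-/-, and markers of other ocular tissues differed too.

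No receptor was called changed, with 0 of 10 by edgeR and 0 of 10 by DESeq2, where 0.235% and 9.48% of all genes were. In edgeR 8 receptors had a lower mean in LC3b-/- and 2 a higher one, and the median log2 fold change of the 10 was -0.33, where that of all genes tested was 0.01. At an unadjusted p below 0.05, 5 of 10 receptors were lower (*Nbr1*, *Bnip3l*, *Fundc1*, *Bnip3* and *Optn*), where 10.6% of all genes were, and 0 of 10 were higher, where 13.5% of all genes were. In 4 of 10 (*Nbr1*, *Optn*, *Bnip3l* and *Fundc1*) the highest LC3b-/- library was under the lowest WT library, as in 10.3% of all genes. In 0 of 10 did every LC3b-/- library lie above, as in 12% of all genes. In the count of 5, *Bnip3* stands without its pseudogene copies, and with them summed its edgeR adjusted p was 0.335. The count of 5 depended most on library LC3b-/- F1. Without that library, 1 receptor (*Nbr1*) was lower at an unadjusted p below 0.05, and the share of all genes fell to 5.74%. The count was 3 without WT F1 (10.6% of all genes) and 3 without WT M1 (6.53% of all genes).

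**Figure D1:**
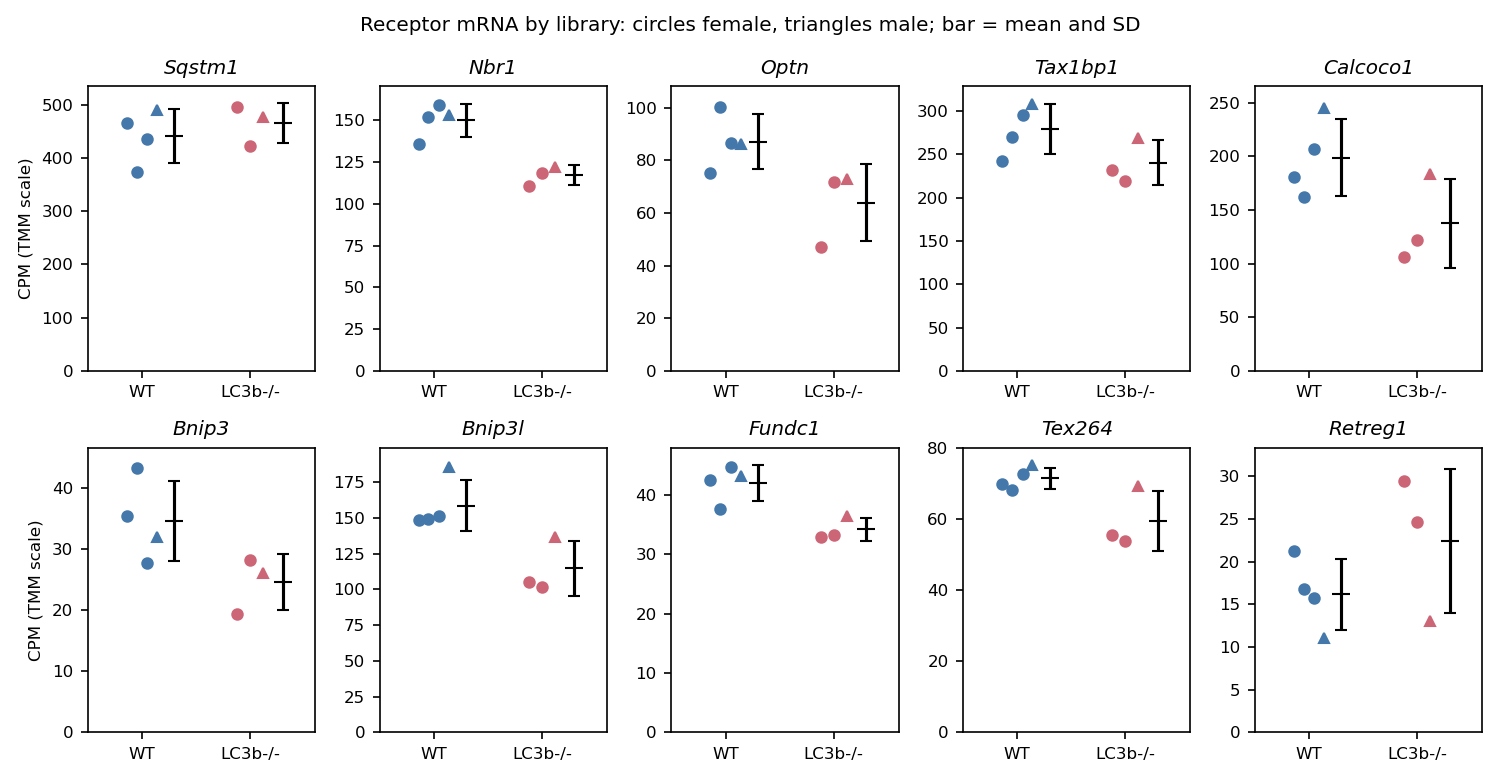
CPM (linear axis from 0) of each receptor in each library, with 4 WT libraries in blue and 3 LC3b-/- libraries in red; the bar beside each group is the mean with its SD. *Nbr1*, *Optn*, *Bnip3l* and *Fundc1* show no overlap between the groups, whereas *Sqstm1* and *Retreg1* overlap and have the higher mean in LC3b-/-.

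Among the receptors for ubiquitinated cargo, *Nbr1* and *Optn* were lower in each LC3b-/- library than in any WT library, and *Sqstm1* and *Tax1bp1* overlapped. SQSTM1, also called p62, gathers ubiquitinated proteins into condensates and is itself degraded by autophagy. In the order F1, F2, F3 and M1, *Sqstm1* stood at 465, 373, 436 and 491 CPM in the WT libraries and at 497, 423 and 476 CPM in LC3b-/- F1, F3 and M. The groups overlapped over most of their range, and the log2 fold change was 0.08 ± 0.15 (SE; edgeR adjusted p = 0.787). NBR1 works beside SQSTM1 on the same cargo and on peroxisomes. *Nbr1* was at 136, 152, 159 and 153 CPM in WT and at 111, 118 and 122 CPM in LC3b-/-. Its lowest WT library was above its highest LC3b-/- library, the log2 fold change was -0.36 ± 0.11 (edgeR adjusted p = 0.123), and *Nbr1* alone among the 10 had an adjusted p below 0.05 in DESeq2 (0.0467), with a fold change under 1.5.

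The log2 ratio of *Sqstm1* to *Nbr1* counts, which needs no scaling between libraries, was 1.55 ± 0.22 in WT (SD, n = 4) and 1.99 ± 0.16 in LC3b-/- (SD, n = 3). Every LC3b-/- library had the higher ratio, by 0.44 on average, and the two-sided exact permutation test over 35 assignments of the libraries gave p = 0.0571 (0.229 adjusted over the 4 receptor pairs compared). The smallest p that these group sizes allow is 0.0286.

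OPTN and TAX1BP1 are ubiquitin-binding receptors that act in mitophagy and in the removal of aggregates and bacteria. *Optn* was at 75.2, 100.4, 86.5 and 86.4 CPM in WT and at 47.0, 71.6 and 73.0 CPM in LC3b-/-, with no overlap and with LC3b-/- F1 far below the rest. Its log2 fold change was -0.45 ± 0.18 (edgeR adjusted p = 0.193), and -0.27 without LC3b-/- F1. *Tax1bp1* was at 243, 270, 295 and 308 CPM in WT and at 232, 219 and 269 CPM in LC3b-/-. The groups overlapped at LC3b-/- M, and the log2 fold change was -0.22 ± 0.14 (edgeR adjusted p = 0.380). The *Optn* to *Tax1bp1* log2 ratio differed by -0.25 on average between LC3b-/- and WT (exact permutation p = 0.314, 0.419 adjusted). That difference was -0.065 without LC3b-/- F1, -0.17 without WT F2 and -0.41 without LC3b-/- F3.

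BNIP3, BNIP3L (also called NIX) and FUNDC1 are anchored in the outer mitochondrial membrane and recruit ATG8 proteins without ubiquitin; BNIP3 and BNIP3L are induced in low oxygen. *Bnip3l* was at 148, 149, 151 and 185 CPM in WT and at 105, 102 and 137 CPM in LC3b-/-. Both LC3b-/- female libraries were about equally low, no library overlapped, and the log2 fold change was -0.47 ± 0.15 (edgeR adjusted p = 0.137). *Fundc1* was at 42.4, 37.7, 44.7 and 43.1 CPM in WT and at 33.0, 33.2 and 36.4 CPM in LC3b-/-. These groups did not overlap either, by a narrow gap between WT F2 and LC3b-/- M, and the log2 fold change was -0.30 ± 0.11 (edgeR adjusted p = 0.160).

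*Bnip3*, per transcript length the least abundant of the mitochondrial receptors, was at 35.5, 43.3, 27.7 and 32.0 CPM in WT and at 19.5, 28.3 and 26.2 CPM in LC3b-/-. LC3b-/- F3 lay just above WT F3, and the log2 fold change was -0.49 ± 0.20 (edgeR adjusted p = 0.186). *Bnip3* has a processed pseudogene, *Gm16439*, that matches it at 98.9% identity over 564 bases. *Gm16439* had 0 counts in all 4 WT libraries and 40, 132 and 115 counts in LC3b-/- F1, F3 and M, 287 in all beside 6326 for *Bnip3*. Reads of near-identical copies can be split between them, so the value for *Bnip3* is uncertain. With the copies summed its log2 fold change was -0.34 (edgeR adjusted p = 0.335). *Bnip3* and *Bnip3l* both had a lower mean, with log2 fold changes of -0.34 and -0.47 after their copies were summed. Without the copies, the log2 ratio of *Bnip3* to *Bnip3l* was -2.21 ± 0.35 in WT (SD, n = 4) and -2.22 ± 0.32 in LC3b-/- (SD, n = 3). Its mean difference of -0.02 changed sign on leaving out single libraries (exact permutation p = 0.971, 0.971 adjusted). The ratio was not computed with the copies summed.

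TEX264, RETREG1 (also called FAM134B) and CALCOCO1 deliver fragments of the ER to autophagosomes, TEX264 and RETREG1 as membrane proteins and CALCOCO1 as a soluble relative of TAX1BP1 that docks on ER-resident VAP proteins. *Calcoco1* was at 180, 162, 207 and 245 CPM in WT and at 106, 122 and 184 CPM in LC3b-/-. Its log2 fold change, -0.53 ± 0.23, was the furthest below 0 of the 10, but LC3b-/- M lay within the WT range and the adjusted p was 0.211 in edgeR. Without LC3b-/- M the log2 fold change was -0.80. *Tex264* was at 69.8, 68.3, 72.6 and 75.1 CPM in WT, the narrowest WT spread of the 10 relative to its mean, and at 55.5, 53.9 and 69.2 CPM in LC3b-/-. LC3b-/- M again overlapped WT, and the log2 fold change was -0.26 ± 0.12 (edgeR adjusted p = 0.226).

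*Retreg1* went the other way in both female LC3b-/- libraries. It was at 21.2, 16.8, 15.7 and 11.1 CPM in WT and at 29.4, 24.6 and 13.1 CPM in LC3b-/-. LC3b-/- F1 and F3 were above every WT library while LC3b-/- M was below all 3 WT females, and the log2 fold change was 0.46 ± 0.31 (edgeR adjusted p = 0.392). It was 0.21 without LC3b-/- F1 and 0.73 without LC3b-/- M. The log2 ratio of *Tex264* to *Retreg1* was 2.18 ± 0.44 in WT (SD, n = 4) and 1.49 ± 0.81 in LC3b-/- (SD, n = 3), a difference of -0.69 with overlapping groups (exact permutation p = 0.229, 0.419 adjusted). Leaving out LC3b-/- F1 gave -0.41 and leaving out LC3b-/- M gave -1.15. A term for genotype by sex gave an edgeR adjusted p of 0.998 for each of the 10 receptors, with 1 male mouse in each group.

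**Figure D2:**
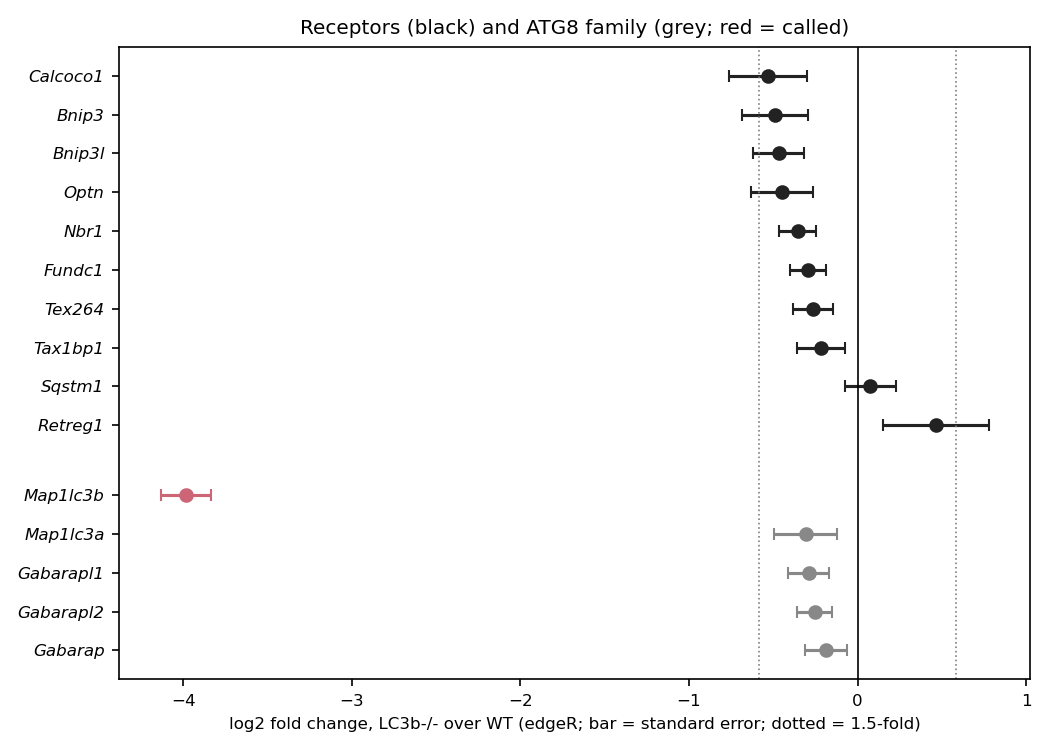
Log2 fold change (x axis, LC3b-/- over WT) with its standard error from edgeR for the 10 receptors (black) and the 5 ATG8 genes (grey, or red where called). The receptors run from -0.53 for *Calcoco1* to 0.46 for *Retreg1*, each inside the dotted 1.5-fold lines, and *Map1lc3b* stands at -3.98.

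The ATG8 genes, whose products the receptors dock on, were all lower on average in LC3b-/-. Of the 5, 1 was called, *Map1lc3b* itself (log2 fold change -3.98 ± 0.15, edgeR adjusted p = 0.0001862). *Gabarapl1* (-0.29 ± 0.12) and *Gabarapl2* (-0.25 ± 0.10) were lower at an unadjusted p below 0.05 with edgeR adjusted p of 0.193 and 0.192. *Map1lc3a* (-0.31 ± 0.19) and *Gabarap* (-0.19 ± 0.12) had edgeR adjusted p of 0.342 and 0.382. The groups overlapped in *Map1lc3a*. In the other 4 of 5, which include the deleted *Map1lc3b*, the LC3b-/- libraries were all under the WT ones, as in 10.3% of all genes. No ATG8 gene had a higher mean in LC3b-/-.

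Compared per transcript length, as TPM (transcript abundance scaled to the same total in every library) computed from the canonical transcript, *Sqstm1* was the most abundant receptor mRNA in every library. Its WT mean was 258 ± 35.2 TPM (SD, n = 4), above 97.7% of the protein-coding genes tested. *Tax1bp1* (114 ± 16.0 TPM), *Calcoco1* (104 ± 21.8) and *Bnip3l* (93.3 ± 11.8) followed, and this order between *Calcoco1* and *Bnip3l* held in 5 of 7 libraries. *Tex264* (67.1 ± 5.74), *Optn* (61.5 ± 7.07) and *Nbr1* (61.3 ± 6.68) formed a middle group in which *Optn* exceeded *Nbr1* in 3 of 7 libraries, so this pair did not differ beyond its spread. *Fundc1* (40.4 ± 4.89), *Bnip3* (18.0 ± 2.57) and *Retreg1* (9.38 ± 2.28) were lowest, and *Bnip3* exceeded *Retreg1* in 6 of 7 libraries. The LC3b-/- order was the same except that *Nbr1* and *Optn* changed places.

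The part of the summed receptor TPM that was *Sqstm1* was 34.1%, 28.5%, 30.7% and 31.6% in the WT libraries. In LC3b-/- F1, F3 and M it was 42.0%, 36.9% and 35.4%. Every LC3b-/- library was above every WT library, while *Sqstm1* itself stood at 272 ± 19.6 TPM in LC3b-/- (SD, n = 3). Lengths taken from the union of all exons kept *Sqstm1* first and *Retreg1* last but put *Bnip3l* second and moved *Optn* to rank 9.

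**Figure D3:**
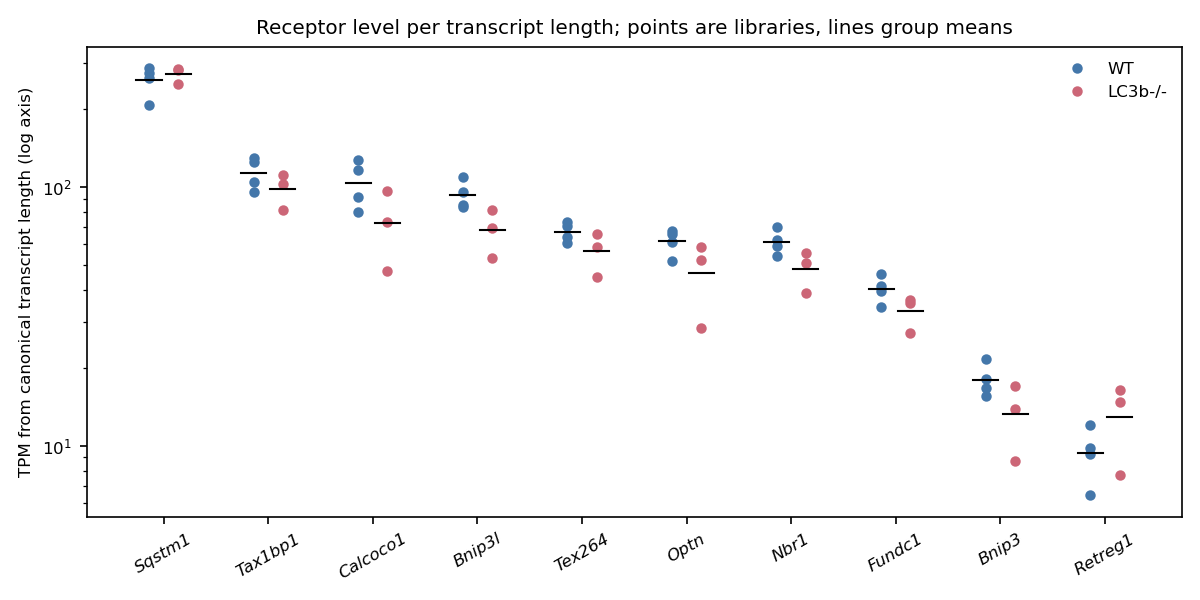
TPM (log axis, from canonical transcript length) of the 10 receptors in WT (blue) and LC3b-/- (red) libraries, ordered by WT mean, with a line at each group mean. *Sqstm1* lies above all other receptors at a mean of 258 TPM in WT and 272 TPM in LC3b-/-.

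Correlation across the 7 libraries was read for the receptors, with the 8 of lower mean in LC3b-/- taken as a group. Pearson's r of log2 CPM is given as a description over n = 7 libraries that share scaling and include the genotype difference. Because the 8 were grouped by their lower mean, that difference by itself raises r within the group. Pearson's r was positive in each pair of these 8, down to 0.30 for *Tax1bp1* with *Bnip3*. It was highest for *Bnip3l* with *Tex264* (0.96), *Calcoco1* with *Tex264* (0.95) and *Calcoco1* with *Bnip3l* (0.94). *Retreg1* ran against them, from -0.39 with *Bnip3* to -0.91 with *Calcoco1*. *Sqstm1* followed none of the other 9, with r between -0.66 and 0.08. Among 14927 protein-coding genes the one with the highest r was *Adat3* for *Sqstm1*, *Hsdl1* for *Nbr1*, *Dnajc12* for *Optn*, *Pdcl* for *Tax1bp1* and *Slco1a4* for *Calcoco1*. It was *Abcb4* for *Bnip3*, *Arl2* for *Bnip3l*, *Sox6* for *Fundc1*, *Cystm1* for *Tex264* and *Cyrib* for *Retreg1*. These r ran from 0.97 to 1.00 over the same libraries. Each is the highest of 14927 values over only 7 libraries, so a value near 1 cannot show shared regulation. *Adat3* had a log2 fold change of 1.11, where *Sqstm1* had 0.08.

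RPE markers were lower in LC3b-/- as well. The summed level of 13 RPE markers was 31729 to 48796 CPM in WT and 14650 to 29339 CPM in LC3b-/-, without overlap. Of the 13, 12 had a lower mean, 6 of them at an unadjusted p below 0.05, where 10.6% of all genes were lower. *Ttr* and *Rgr* made the largest parts of the sum. *Best1*, the 1 with a higher mean, was at only 0.86 to 1.71 CPM. Within each genotype the libraries had the same order in summed RPE markers as in *Calcoco1*, with M1 highest in WT and M highest in LC3b-/-. No other receptor kept this order in both genotypes. Müller glia markers, which include genes that RPE also expresses, summed to 7499 to 10396 CPM in WT and 5677 to 7189 CPM in LC3b-/-. Of these 7 markers 5 had a lower and 2 a higher mean, 0 at an unadjusted p below 0.05. The largest part of the sum was *Clu*, at 4632 to 7596 CPM in WT and 2527 to 4860 CPM in LC3b-/-. In bulk RNA, fewer RPE cells in a sample and less of a given RNA in each RPE cell cannot be told apart.

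Ocular surface and endothelial markers were higher in LC3b-/-. The 10 ocular surface epithelium markers summed to 9.14 to 2418 CPM in WT and to 3308 to 23506 CPM in LC3b-/-. All 10 had a higher mean, 7 at an unadjusted p below 0.05, where 13.5% of all genes were higher. LC3b-/- F1 held the most and LC3b-/- M the least of the LC3b-/- libraries, as for *Retreg1*. In WT the order was another, since M1 had the highest ocular surface sum, 2418 CPM, and the lowest *Retreg1*, 11.1 CPM. The 8 endothelial markers summed to 252 to 816 CPM in WT and 977 to 1059 CPM in LC3b-/-, and all 8 had a higher mean. The part of these marker differences in the receptor values was not tested.

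No other marker list was higher in every LC3b-/- library. Photoreceptor markers spanned 24.1 to 19399 CPM in WT and 44.1 to 6784 CPM in LC3b-/-, all 12 with a lower mean and none at an unadjusted p below 0.05. Lens markers were at 19.0 to 22.6 CPM in WT and 11.9 to 16.7 CPM in LC3b-/-, with *Cryba1* at 0. Markers of macrophages and microglia, neutrophils (with *Mpo* at 0), fibroblasts, skeletal muscle and erythrocytes overlapped between the groups.

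**Figure D4:**
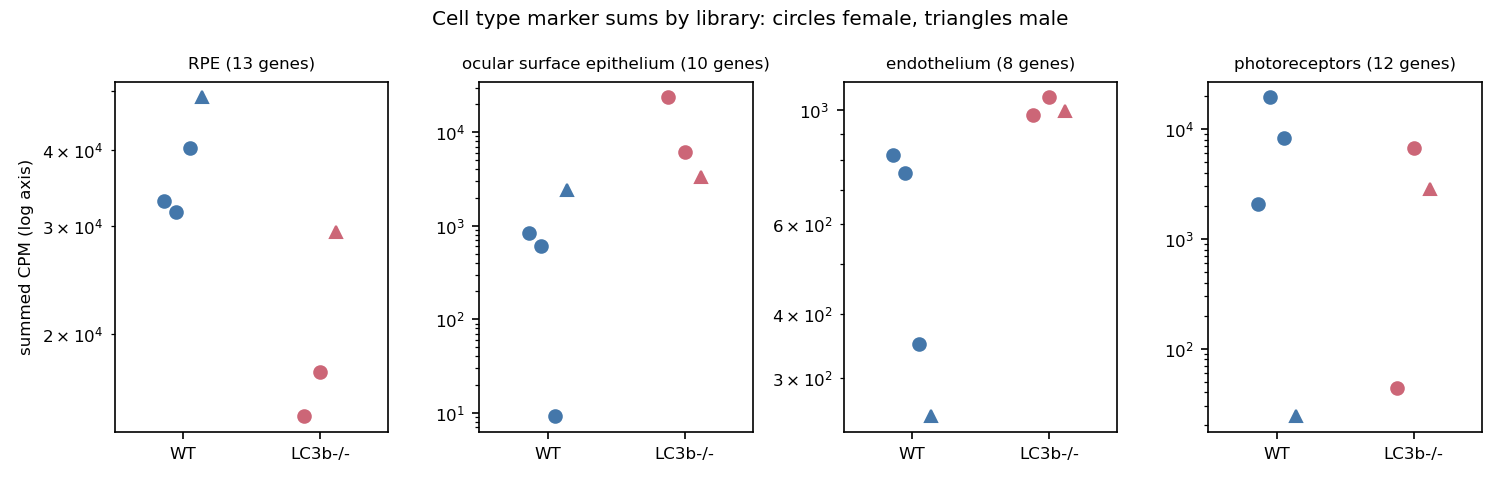
Summed CPM (log axis) of 4 cell type marker lists in each library, WT in blue and LC3b-/- in red, circles for female and triangles for male mice. The RPE sum is below every WT library in LC3b-/-, the ocular surface and endothelial sums are above every WT library, and the photoreceptor sums overlap.

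Other genes of the pathway were read in the same fit. Of 20 other receptors and adaptors 19 could be tested (*Calcoco2* had 0 counts). None of them was called by edgeR or DESeq2, where 0.235% and 9.48% of all genes were. Their median log2 fold change was -0.19, with 13 lower and 6 higher, and 6 were lower and 1 higher at an unadjusted p below 0.05. Of all genes tested, 10.6% were lower and 13.5% higher at that p. *Yipf3* (-0.50 ± 0.15, edgeR adjusted p = 0.118) and *Yipf4* (-0.41 ± 0.14, edgeR adjusted p = 0.150), receptors for the Golgi, had the smallest p, and both were lower in every LC3b-/- library than in any WT library. These 2 proteins act as a complex.

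The 19 kinases, ubiquitin enzymes and partners that act on the receptors had a median of -0.09, with 10 lower and 9 higher. None was called by edgeR, where 0.235% of all genes were. At an unadjusted p below 0.05, 3 were lower and 3 higher, where 10.6% and 13.5% of all genes were. *Tnip1*, which encodes a ubiquitin-binding partner of TAX1BP1 and OPTN in NF-kappaB signaling, was higher in every LC3b-/- library (0.62 ± 0.16, edgeR adjusted p = 0.0988). It was the only 1 of the 19 called by DESeq2, which called 9.48% of all genes it tested. *Atg101*, a subunit of the ULK1 initiation complex, was likewise higher in every LC3b-/- library (0.47 ± 0.15, edgeR adjusted p = 0.128).

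*Sqstm1* is a target of the transcription factor NRF2, which SQSTM1 in turn activates by binding KEAP1, so other NRF2 targets were read beside it. Of 15, none was called by edgeR or DESeq2, where 0.235% and 9.48% of all genes were. At an unadjusted p below 0.05, 4 were higher and 2 lower, and the median log2 fold change was 0.13. Among all genes, 13.5% were higher and 10.6% lower at that p. *Hmox1*, heme oxygenase, had the smallest p and was higher in every LC3b-/- library (0.74 ± 0.23, edgeR adjusted p = 0.125). *Srxn1*, sulfiredoxin, was at 0.54 ± 0.18 (edgeR adjusted p = 0.144). The 2 lower at an unadjusted p below 0.05 were *Nqo1* (-0.71 ± 0.28, edgeR adjusted p = 0.185) and *Me1* (-0.63 ± 0.24, edgeR adjusted p = 0.173). *Sqstm1* stood at 0.08 in the same fit.

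Hypoxia targets were read beside *Bnip3* and *Bnip3l*. Of 16 genes, 11 had a higher and 5 a lower mean in LC3b-/-, and the median was 0.29. At an unadjusted p below 0.05, 7 were higher and 2 lower, where 13.5% and 10.6% of all genes were. None was called by edgeR, where 0.235% of all genes were. DESeq2 called 4, with *Slc2a1* lower and *Egln3*, *Bhlhe40* and *Pfkfb3* higher, and 9.48% of all genes it tested. *Pfkfb3*, which promotes glycolysis, was higher in every LC3b-/- library (1.33 ± 0.36, edgeR adjusted p = 0.105). *Egln1*, an oxygen sensor that marks HIF for degradation, was lower in every one (-0.55 ± 0.12, edgeR adjusted p = 0.0906). *Bnip3* and *Bnip3l* had log2 fold changes of -0.49 and -0.47, opposite in sign to the median of this list but of the same sign as 5 of its 16 genes.

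The *Bnip3* promoter is printed because it alone among the receptors held the E-box CACGTG. That motif contains ACGTG, a form of the hypoxia response core, on both strands. Other forms of this core were not searched for or marked. The 250 bases before the start of the canonical transcript are given on the minus strand (GRCm39, chr7:138511254-138511503), with the motif in capitals.

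Bnip3 promoter: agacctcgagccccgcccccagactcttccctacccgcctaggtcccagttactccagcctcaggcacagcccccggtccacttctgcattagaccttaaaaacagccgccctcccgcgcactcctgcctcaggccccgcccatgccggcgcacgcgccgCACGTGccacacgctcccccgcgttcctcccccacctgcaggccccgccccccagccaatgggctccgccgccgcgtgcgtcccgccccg

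The motif began 90 bases before the start. In windows of 250 bases before to 50 after the start, searched on both strands, CACGTG was present in 1 of 10 receptors and 7.81% of 21770 protein-coding genes. ACGTG, which every CACGTG contains, was present in 3 of 10 receptors (*Bnip3*, *Bnip3l* and *Tex264*) and 20.7% of all. TGACNNNGC, the core of the NRF2 response element, was present in 2 of 10 (*Sqstm1* and *Bnip3l*) and 12.5% of all. These matches describe letters in a window and were not tied to any measured binding.

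Release of RPE sheets with enzymes can itself induce immediate early and heat shock genes, so 12 such genes were read in the same fit. All 12 had a higher mean in LC3b-/-, with a median of 0.67. At an unadjusted p below 0.05, 5 were higher, where 13.5% of all genes were. None was called by edgeR, beside 0.235% of all genes, and DESeq2 called *Hspa1b*, beside 9.48% of all genes it tested. *Hspa1b*, an inducible heat shock protein, was at 1.18 ± 0.36 (edgeR adjusted p = 0.125), and *Atf3*, a stress-induced transcription factor, was higher in every LC3b-/- library (1.16 ± 0.43, edgeR adjusted p = 0.167). The part of this difference in the receptor values was not tested.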

How the data were processed

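RNA-seq libraries (poly(A)-selected, stranded, single reads) of RPE from 4 WT and 3 LC3b-/- mice were analysed. The deposited values are estimated counts per gene in whole numbers, which the authors made with Salmon against GENCODE transcripts of GRCm39 and summarised with tximeta. From these, genes were filtered by filterByExpr, scaled by TMM and tested in edgeR 4.0.16 (R 4.3.3) by the quasi-likelihood test, genotype being the only term. DESeq2 1.42.0 and limma 3.58.1 were alternatives. The authors' thresholds were used (adjusted p below 0.05, 1.5-fold). In counts simulated from these libraries for 16990 genes, edgeR recovered 87% of 100 genes changed by 2 on the log2 scale and 94% of 100 changed by 3. It also called 11 genes that had not been changed. Smaller changes, of the size seen in the receptors, were not simulated, so their recovery is not known. Of the table's identifiers, 51721 of 52740 matched GENCODE vM39, which gave symbols, lengths and coding sequences. Near-identical copies were sought with BLAST 2.17.0 (at least 95% identity over 100 bases).

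The 10 receptors, the gene lists and the tests were chosen with earlier results of these data known. Genes named were the receptors, the ATG8 genes, from each other pathway list the genes called or otherwise the 2 with the smallest p, and for each receptor the gene with the highest r. The 2 NRF2 targets lower at an unadjusted p below 0.05 were named as well. Marker lists were given as sums. GEO labels gave the groups. P-values measure the spread between single mice, and the total counts set counting error only. No 2 replicates agreed within sampling noise (chi-square per degree of freedom 66.4 to 219). *Sqstm1* overlaps *Mgat4b* (143 bases) and *Mrnip* (799 bases) on the other strand, and whether strand was used in counting is not given in the sources used here. The genotype labels spell LC3b-/- as LCb-/-. No group number in the mouse names was shared by both genotypes, so whatever it marks cannot be told apart from genotype. Within LC3b-/-, library M carried another group number than F1 and F3, so there it cannot be told apart from sex.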

Additional observations from a re-analysis of the deposited data

Results flagged for a closer look

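In 19 groups of 4 WT values (log2 CPM of the 10 receptors and 5 ATG8 genes, and the 4 log2 ratios), 2 had a library apart from the others by Dixon's test at its 95% critical value. Chance alone gives about 1 in 20. For log2 CPM of *Bnip3l* in WT, M1 at 185 CPM stood above 148 to 151 CPM in the 3 females, with a gap of 0.915 of the range. For log2 CPM of *Gabarap* in WT, M1 at 241 CPM stood above 224 to 225 CPM, with a gap of 0.981 of the range. WT M1 is the only WT male. Without it *Bnip3l* had a log2 fold change of -0.39.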

How the results depend on the processing

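The count of receptors called stayed at 0 under 17 other settings. In the main fit 0.235% of all genes were called, so a count of 0 of 10 cannot show that the receptors were stable. The setting without a fold-change threshold was run in edgeR alone. In DESeq2 *Nbr1* had an adjusted p of 0.0467 and failed on fold change. Each receptor kept its direction under the 16 settings that refit it (17 for *Bnip3* and *Bnip3l*, whose pseudogene copies were also summed), and *Sqstm1* ranged from 0.0030 (without WT F2) to 0.13. The count of 5 receptors at an unadjusted p below 0.05 was 2 with library size alone and ranged from 1 (without LC3b-/- F1) to 7 (without LC3b-/- M, when *Retreg1* was among them as higher) on leaving out a library. The count was not repeated with the pseudogene copies of *Bnip3* summed. The share of all genes lower at an unadjusted p below 0.05 was 10.6% in the main fit and 7.65% with library size alone. It was 5.74% without LC3b-/- F1 and 13.1% without LC3b-/- M. The ratio of *Bnip3* to *Bnip3l* ranged from -0.20 to 0.12. DESeq2 called 1 kinase or partner, 4 hypoxia targets and 1 dissociation gene, beside 9.48% of all genes it tested. A sex covariate called 1 NRF2 target, females alone 1 hypoxia target. On leaving out a library, hypoxia calls ranged from 0 to 2 and dissociation calls from 0 to 1. Calls among all genes were 40, against 1813 by DESeq2, 124 by limma voom, 78 with no filter, 197 with sex, 96 in females and 11 (without LC3b-/- F3) to 485 (without LC3b-/- M); the cause was not tested. Shared mouse numbers gave only 2 pairs (correlation of deviations 0.146 and 0.243) and mark no shared animal. With the number as a replicate block, 2 receptors were below 0.05 unadjusted, *Map1lc3b* was -3.95 (adjusted p = 0.0701), and 0 ATG8 genes and 0 genes in all were called. The lowest count of any receptor in any library was 288.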
